A study of Mus musculus with 12 samples.

Results

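The 10 genes described here make, degrade or bind retinoic acid. They were chosen by name for their role in the pathway and not for any measured value, though with earlier results of these data known. They are Rdh10, Aldh1a1, Aldh1a2, Aldh1a3, Cyp26a1, Cyp26b1, Cyp26c1, Rara, Rarb and Rarg, 10 of 22367 annotated protein-coding genes. For each of them, the regions that a BRG1 ChIPseq list placed at a promoter, in the gene body or within 100 kb were counted. A promoter reached 1 kb either side of an annotated transcription start site (TSS), and a region listed on several rows was counted once. The list had 4791 rows, which named 3473 distinct regions, and 8 of these regions (0.230%), on 12 rows, lay within 100 kb of the 10 genes. The study's text counts each row as a BRG1-binding region of these cells, and the number of distinct regions is the number it gives for cardiac myocytes. Whether the distinct regions all stand for binding in the precursors could not be settled from the list, and this limit applies to each count of regions here.

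Retinoic acid is a small signal made from vitamin A. RDH10 oxidises retinol to retinaldehyde, and the ALDH1A enzymes oxidise retinaldehyde to retinoic acid. CYP26 enzymes break retinoic acid down, so that tissues that make it and tissues that clear it lie side by side in the embryo. The receptors RARA, RARB and RARG bind DNA as partners of RXR proteins, at direct repeats of a 6-base word, and recruit corepressors without retinoic acid and coactivators with it. In the early heart the signal sets the posterior limit of the cardiac field and takes part in forming the atria, and ALDH1A2 is the main source of the signal in the mesoderm next to it.

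BRG1 is the ATPase of BAF, a complex that moves nucleosomes. The cells were cardiac precursors (CPs) that had been differentiated from wild-type mouse W4/129S6 embryonic stem cells, first as aggregates with VEGF, Activin and BMP4 and then in monolayers with FGFs. Their chromatin was crosslinked with disuccinimidyl glutarate and formaldehyde, digested with MNase and precipitated with an antibody to BRG1, giving 2 ChIP libraries, and 1 library of input DNA served as background. The other 9 of the 12 libraries were not analysed here. The single list for these cells gives a chromosome, a start and an end on mm9, with no height and no value for either library, so that no spread between replicates, no depth and no test can be given for any gene. Nothing in such a list shows which genes the cells expressed, and the cell type could not be checked against its markers. A gene without a region may be unbound or below the threshold of the caller, since the depth is unknown.

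The sequences searched for here were direct repeats of the kind to which RAR and RXR bind. Both strands were searched for any pair of the word AGGTCA, the word AGTTCA, the word GGGTCA and the word GGTTCA in the same orientation with a spacer of 1, 2 or 5 bases. Within 1 kb of the 20 protein-coding TSSs of the 10 genes there were 3 such repeats, all with a spacer of 5 bases. They lay at an internal TSS of Rarb (Rarb-202), at the TSS of Cyp26a1 and at an internal TSS of Rara (Rara-004). They are shown 5′ to 3′ in the direction of the repeat, with the words in capitals.
Rarb, chr14:17408027-17408043, minus strand: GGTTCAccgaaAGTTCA
Cyp26a1, chr19:37772266-37772282, minus strand: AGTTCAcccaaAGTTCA
Rara, chr11:98821322-98821338, plus strand: AGTTCAgcaagAGTTCA

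The repeat of Rarb lay from 57 to 41 bp upstream of the TSS of Rarb-202, on the strand of the gene and inside a BRG1 region. That of Cyp26a1 lay from 32 to 16 bp upstream of the TSS, on the strand opposite to the gene, and the nearest region was 361 kb away. In Rara the repeat lay from 404 to 388 bp upstream of the TSS of Rara-004, 81.1 kb from the nearest region. So 1 of these 3 repeats was in a listed region. Such a match describes the letters of the genome and is not a measurement of a receptor on it. Over the whole list, 10 of 3473 regions (0.288%, Wilson 95% interval 0.156 to 0.529%) held a repeat with any of the 3 spacers, and 3 regions (0.0864%, 0.0294 to 0.254%) held one with a spacer of 5 bases. Among the 2566 regions at promoters of any gene, the region at Rarb was the 1 that held a repeat with that spacer (0.0390%, 0.00688 to 0.220%). Of windows from 250 bp before to 50 bp after a protein-coding TSS, 33 of 45962 (0.0718%) held it. The windows were not matched to the regions in width or base composition, and windows of nearby TSSs could overlap. The Wilson intervals cover counting error only.

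To show the repeats in place, 300 bases before the TSS of Rarb-202, all inside the region, are set beside 250 bases before the TSS of Cyp26a1, where no region was listed. Each is written along its gene and ends at the base before the TSS, with the words of the repeat in capitals. The Cyp26a1 repeat reads in the other direction there.
Rarb, chr14:17407987-17408286, minus strand, in a region: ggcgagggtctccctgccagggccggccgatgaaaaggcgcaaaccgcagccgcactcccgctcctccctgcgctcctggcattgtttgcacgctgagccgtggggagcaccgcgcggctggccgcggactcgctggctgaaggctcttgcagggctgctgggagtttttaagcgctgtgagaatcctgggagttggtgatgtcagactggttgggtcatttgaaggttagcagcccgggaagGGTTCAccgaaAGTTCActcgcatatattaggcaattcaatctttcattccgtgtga
Cyp26a1, chr19:37772048-37772297, plus strand, no region: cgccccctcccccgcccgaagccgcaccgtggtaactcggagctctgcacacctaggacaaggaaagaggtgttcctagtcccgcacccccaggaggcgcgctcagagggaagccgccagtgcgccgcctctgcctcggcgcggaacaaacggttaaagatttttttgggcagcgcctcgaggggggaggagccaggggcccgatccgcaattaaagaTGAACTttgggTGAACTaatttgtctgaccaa

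Set against these are the bases before the TSSs of Rdh10 and of the shorter Cyp26b1 transcript, both inside wide regions. Neither stretch holds any of the 4 words on either strand, so that no capitals appear. The third sequence is the whole region in the first intron of Aldh1a2, with its 2 words in capitals. There is 1 on each strand, so that they do not form a direct repeat.
Rdh10, chr1:16095605-16095854, plus strand: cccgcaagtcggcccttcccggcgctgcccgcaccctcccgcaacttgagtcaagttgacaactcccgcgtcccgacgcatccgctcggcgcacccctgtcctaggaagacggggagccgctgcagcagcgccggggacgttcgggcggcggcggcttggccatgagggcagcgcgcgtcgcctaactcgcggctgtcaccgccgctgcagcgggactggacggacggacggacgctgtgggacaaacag
Cyp26b1, chr6:84538633-84538882, minus strand: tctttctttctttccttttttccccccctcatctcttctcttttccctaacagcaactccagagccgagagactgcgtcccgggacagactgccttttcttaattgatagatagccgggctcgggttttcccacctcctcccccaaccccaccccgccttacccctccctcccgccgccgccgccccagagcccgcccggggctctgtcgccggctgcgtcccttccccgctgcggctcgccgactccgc
Aldh1a2, chr9:71077906-71078125, plus strand: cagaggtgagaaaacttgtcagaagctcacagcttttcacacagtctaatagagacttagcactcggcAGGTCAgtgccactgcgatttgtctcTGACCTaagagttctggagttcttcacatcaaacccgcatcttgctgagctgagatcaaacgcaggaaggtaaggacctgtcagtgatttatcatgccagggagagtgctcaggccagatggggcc

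A region lay at a promoter of 4 of the 10 genes (Rdh10, Cyp26b1, Rarb and Rarg), that is 40.0%, where the share over all protein-coding genes was 11.9% (2667 of 22367). A region overlapped the body of 5 genes (50.0%), the same 4 and Aldh1a2, against 12.3% of all protein-coding genes. Within 100 kb there was a region for 7 genes (70.0%), now also Aldh1a3 and Rara, against 40.3%. Aldh1a1, Cyp26a1 and Cyp26c1 had none within 100 kb. With 10 genes chosen by name these counts are a description, and no test was made of the difference from the background. The background shares, here and for the rest of the pathway below, were not matched for gene length or number of TSSs.

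**Figure D1:**
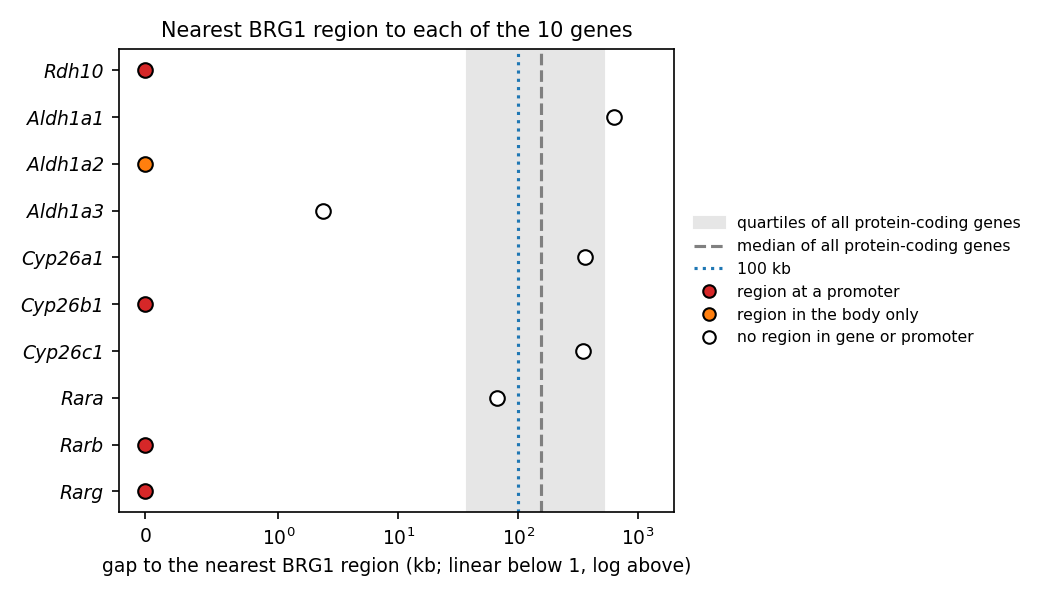
Gap from each of the 10 genes to the nearest BRG1 region in kb (linear below 1 kb and logarithmic above), with the quartiles (grey band, 37.3 to 519 kb) and the median (dashed line, 156 kb) of all protein-coding genes and a dotted line at 100 kb. Of the 10 points, 5 sit at 0, and Aldh1a1 sits farthest to the right at 628 kb.

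The plot of gaps sets the genes side by side. The gap was 0 for the 5 genes with a region in the body, 2.37 kb for Aldh1a3 and 66.2 kb for Rara. It was 349 kb for Cyp26c1, 361 kb for Cyp26a1 and 628 kb for Aldh1a1. Within the family of retinaldehyde dehydrogenases and within that of the CYP26 enzymes the genes thus ranged from a region inside the gene or within a few kb of it to none within 100 kb.

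Rdh10 (ENSMUSG00000025921) encodes the retinol dehydrogenase that opens the pathway in the embryo. It lies on the plus strand at chr1:16095855-16123815 and has 1 protein-coding TSS. The region at chr1:16095286-16096505 was 1220 bp wide, stood on 3 rows and spanned that TSS, with its midpoint 40 bp downstream. Inside the gene it covered the whole first exon of 533 bp, of which 289 bp were coding and 244 bp untranslated, and 118 bp of the first intron. Upstream it reached into the space between Rdh10 and Rpl7, a ribosomal protein gene whose TSS lies 1112 bp away on the other strand, and it was within 1 kb of that TSS too. Of the regions at promoters, 92.8% were narrower. Of all distinct regions, 203 (5.85%) stood on 3 or more rows. Why a region stood on several rows is not stated in the sources used here, and wider regions had more of them, with a median of 2 rows from 1000 bp upwards and of 1 row below. The region had a GC content of 71.6% and a ratio of observed to expected CpG of 0.926, both inside the middle range of regions at promoters (70.0 to 77.1% and 0.805 to 0.991).

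Aldh1a2 (ENSMUSG00000013584) encodes the retinaldehyde dehydrogenase of the embryonic mesoderm. The gene lies on the plus strand at chr9:71063596-71144050. Its single region, at chr9:71077906-71078125, was 220 bp wide, stood on 1 row and lay wholly in the first intron, which is 36634 bp long, with its near end 14.3 kb downstream of the TSS. No region was listed at the TSS itself. That TSS had a GC content of 71.2% and a CpG ratio of 0.929 in the 500 bp on each side, close to the 72.3% and 0.957 at Rdh10. Of all protein-coding TSSs rich in CpG, 27.6% had a region within 1 kb. The intronic region was of another composition, with a GC content of 50.0% and a CpG ratio of 0.292. The CpG ratio was near the median of the 907 regions away from promoters, 0.280. The width was also near the middle, above that of 52.4% of them. The GC content was below their median of 54.5% and above that of only 26.8% of them. The intronic region held the words AGGTCA and TGACCT, the second being the first read on the other strand. The word AGGTCA on either strand was in 12.5% of all regions.

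Aldh1a3 (ENSMUSG00000015134), whose enzyme acts mainly in eye and nasal tissue, lies on the minus strand at chr7:73535778-73572403. It had no region of its own. The nearest, at chr7:73532866-73533405, 540 bp wide and on 2 rows, lay 2.37 kb beyond the 3′ end of the gene and at the promoter of Lrrk1, a kinase gene. It was 39.0 kb from the outermost TSS of Aldh1a3, which is rich in CpG (GC content 66.2%, CpG ratio 0.684).

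Aldh1a1 (ENSMUSG00000053279), known from the dorsal retina and from adult tissues, lies on the plus strand at chr19:20676451-20717952. The nearest region was 628 kb away at the promoter of Zfand5, and on the other side the next was 1931 kb away at the promoter of 2410127L17Rik. The interval of 2600 kb without a region in which Aldh1a1 lies was larger than 94.2% of the intervals between neighbouring regions, which had a median of 272 kb. Counted by genes, 78.4% of protein-coding genes had a smaller gap to the nearest region than Aldh1a1. Its TSS was poor in CpG, with a GC content of 45.5% and a CpG ratio of 0.174.

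Among the genes that clear retinoic acid, Cyp26b1 (ENSMUSG00000063415) had the widest of the 8 regions, and its 2 relatives had none near them. Cyp26b1 lies on the minus strand at chr6:84521938-84543740 with 2 protein-coding TSSs 5108 bp apart. The region at chr6:84537546-84539345 was 1800 bp wide, on 2 rows, and spanned the internal TSS, that of Cyp26b1-202, with its midpoint 186 bp downstream. It covered the whole first exon of that transcript (837 bp) and parts of the introns on both sides, and 204 bp of it were coding in one transcript or the other. The outermost TSS was 4.40 kb from the edge of the region. Of the regions at promoters 98.1% were narrower. The region had a GC content of 62.1% and a CpG ratio of 0.809, and the GC content was above that of only 6.90% of regions at promoters.

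Cyp26c1 (ENSMUSG00000062432) and Cyp26a1 (ENSMUSG00000024987) lie next to each other on the plus strand, at chr19:37760071-37767888 and chr19:37772298-37776018, with 4.41 kb between them. Both enzymes mark off regions low in retinoic acid in the embryo, and Cyp26a1 is known to be switched on by the signal itself through its promoter. The pair shared an interval of 788 kb without a region, larger than 77.3% of all intervals. It was bounded by a region in Ide, 349 kb from Cyp26c1 and 361 kb from Cyp26a1, and by a region at the promoter of Rbp4, 423 kb from Cyp26a1 and 431 kb from Cyp26c1. Of all protein-coding genes, 67.3% had a smaller gap to the nearest region than Cyp26c1, and 68.0% a smaller one than Cyp26a1. Rbp4 encodes the carrier of retinol in blood. The TSS of Cyp26a1 was rich in CpG, with a GC content of 62.9% and a CpG ratio of 0.727, and that of Cyp26c1 was not, with 52.7% and 0.388.

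**Figure D2:**
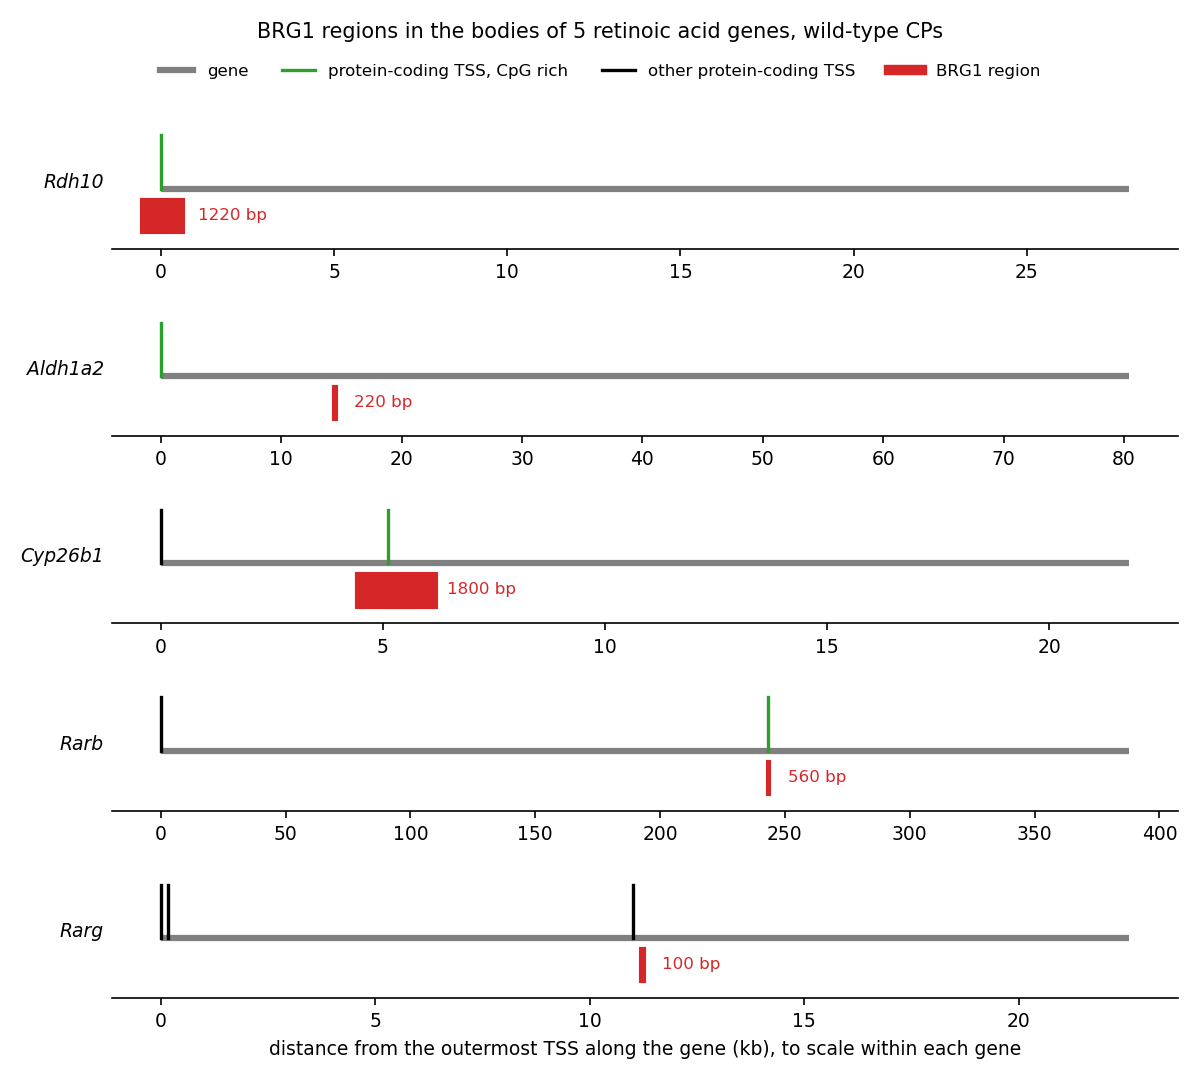
The 5 genes with a region in the body, each drawn from its outermost TSS in kb on its own scale, with protein-coding TSSs as vertical lines (green where rich in CpG, black otherwise) and regions as red boxes with their width in bp. Narrow boxes are drawn with an outline that widens them slightly. The regions of Cyp26b1, Rarb and Rarg sit at internal TSSs, and that of Aldh1a2 sits at none.

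The receptor genes also differed. Rarb (ENSMUSG00000017491) lies on the minus strand at chr14:17263356-17651381 and spans 388 kb. The outermost TSS serves 2 transcripts (Rarb-201 and Rarb-203), and Rarb-202 starts 243 kb further in. The region at chr14:17407806-17408365, 560 bp wide and on 1 row, spanned this internal TSS with its midpoint 100 bp upstream. Of its bases, 181 were untranslated bases of the first exon of Rarb-202 and 379 were upstream, in what is the second intron of Rarb-201 (70142 bp) and the first intron of Rarb-203. This is the region that holds the direct repeat printed above. Among the 550 regions within 100 bp of its width, 1 (0.182%) held a repeat with a spacer of 5 bases, and that was the region itself. Its width was above that of 62.6% of the regions at promoters, and its GC content (62.1%) above that of 6.98% of them.

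The TSSs of Rarb had unlike base compositions. At Rarb-202 the GC content was 58.6% and the CpG ratio 0.770, and at the outermost TSS they were 45.4% and 0.0777. The short distance from the repeat to the TSS, and the position of both in the region, apply to Rarb-202 and say nothing of the transcripts that start 243 kb upstream.

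In Rarg (ENSMUSG00000001288; minus strand, chr15:102065369-102087948) the region was of the smallest width among the 8. It lay at chr15:102076686-102076785, was 100 bp wide on 1 row, and was within the first exon of Rarg-002, all 100 bp of it untranslated, 146 bp downstream of that internal TSS. The outermost TSS lay 11.2 kb away. Only 3.86% of regions at promoters were narrower. It was left out when regions under 200 bp were dropped, which took the count of genes with a region at a promoter from 4 to 3. The GC content was 74.0% and the CpG ratio 0.441, and 2.38% of regions at promoters had a lower CpG ratio. A second region, at chr15:102186126-102186725, 600 bp wide and on 1 row, lay 98.2 kb upstream of Rarg in no annotated gene. The TSS nearest to it was that of Aaas, 5.24 kb from its midpoint, so that it is counted with Rarg only through the limit of 100 kb.

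Rara (ENSMUSG00000037992; plus strand, chr11:98789132-98836256) has 6 protein-coding TSSs, the most of the 10 genes, and none of them had a region. The nearest region, at chr11:98902406-98902925, 520 bp wide and on 1 row, was 66.2 kb beyond the 3′ end of the gene, at the promoter of Igfbp4, which encodes a binding protein of insulin-like growth factors. Both neighbouring TSSs of Rara-001 and Rara-002 were rich in CpG, with a GC content of 64.2% and 64.5% and a CpG ratio of 0.699 and 0.692.

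**Figure D3:**
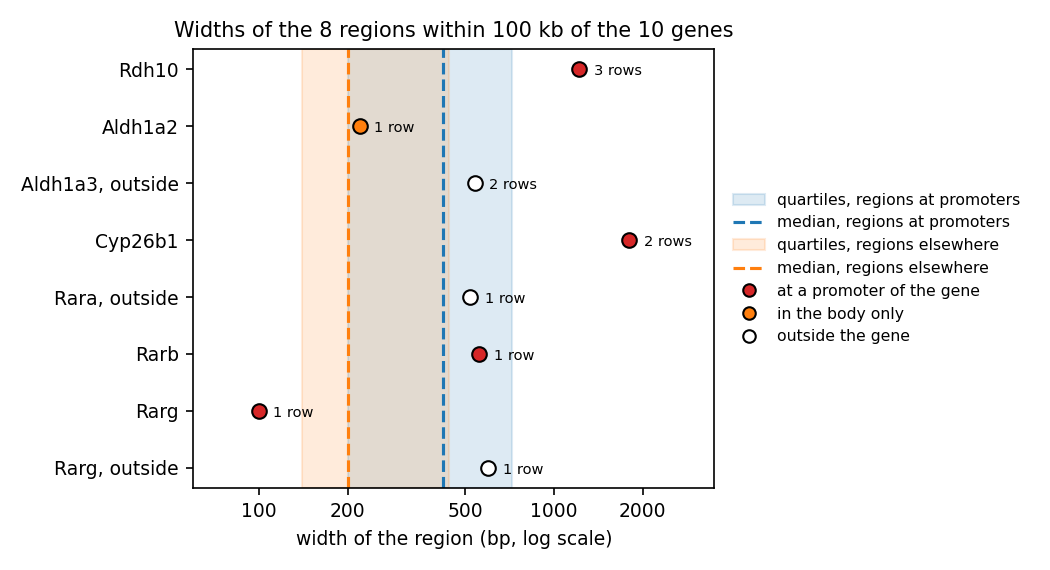
Width in bp (log scale) of the 8 regions within 100 kb of the 10 genes, with the number of rows each stood on, the quartiles (bands) and medians (dashed lines) of regions at promoters and of regions elsewhere. Red points are at a promoter of the gene, the orange point is in the body only and open points are outside the gene. The regions of Cyp26b1 (1800 bp) and Rdh10 (1220 bp) lie above the upper quartile of 720 bp, and that of Rarg (100 bp) lies below the lower quartile of 200 bp.

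The widths, plotted by gene, ran from 100 to 1800 bp with a median of 550 bp. Regions at promoters of any gene had quartiles of 200, 420 and 720 bp, and regions elsewhere had quartiles of 140, 200 and 440 bp. Width and the number of rows are the only graded values that this list gives, and neither is a measure of binding strength.

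In all 3 genes that had a region at a promoter and protein-coding TSSs more than 2 kb apart, Cyp26b1, Rarb and Rarg, the region was at an internal TSS and none was at the outermost one. Over all protein-coding genes of this kind, 189 of 968 (19.5%) had no region at the outermost TSS. Rdh10, the other gene with a region at a promoter, has a single protein-coding TSS. This comparison was set up after the positions had been seen, without matching the genes for base composition at the outermost TSS.

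**Figure D4:**
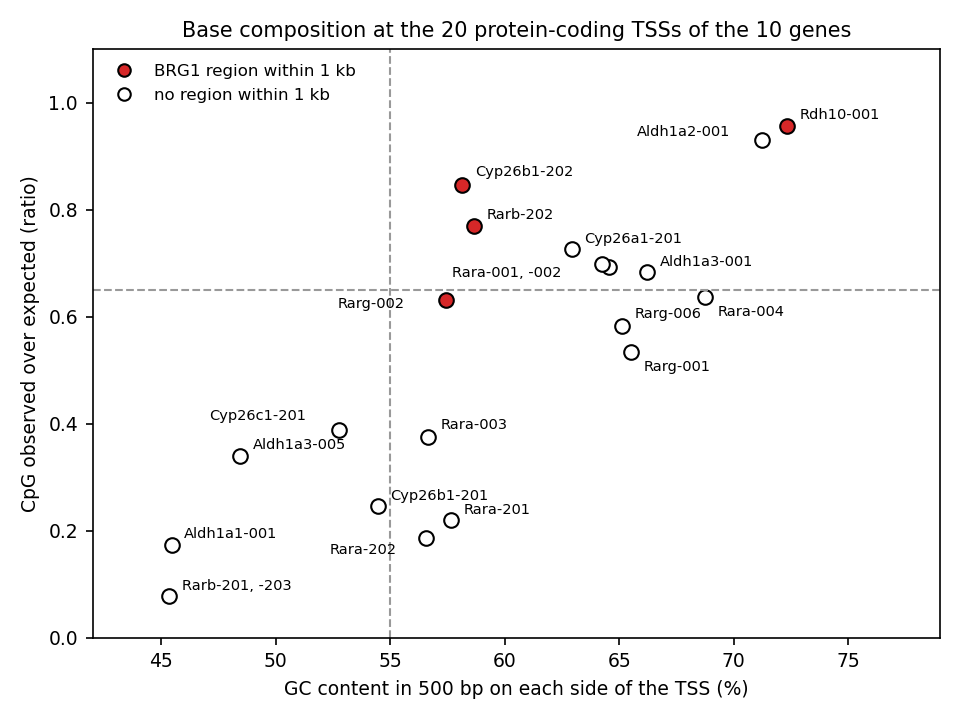
GC content (%) and ratio of observed to expected CpG in 500 bp on each side of the 20 protein-coding TSSs of the 10 genes, filled where a BRG1 region lay within 1 kb. Dashed lines mark 55% and 0.65. Of the 8 TSSs above both lines, 3 are filled, and the other filled point is Rarg-002, just below the CpG line at 0.631.

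Base composition was compared since most regions of the list (2566 of 3473) lay at promoters, which are often rich in CpG. A TSS was called rich in CpG where the GC content was at least 55% and the CpG ratio at least 0.65 in the 500 bp on each side. Of the 20 TSSs, 8 met this and 3 of them had a region (Rdh10, Cyp26b1-202 and Rarb-202), where the share over all such TSSs was 27.6% (4441 of 16114). Of the other 12, 1 had a region (Rarg-002), where the share over all other TSSs was 2.84% (849 of 29901). Among these 12 were the outermost TSSs of Cyp26b1 (GC content 54.4%, CpG ratio 0.247), Rarb (45.4% and 0.0777) and Rarg (65.5% and 0.533). As the plot of base composition shows, 5 TSSs rich in CpG had none, those of Aldh1a2, Aldh1a3-001, Cyp26a1, Rara-001 and Rara-002. Words of 75 bp, the length of the reads before trimming, were looked up in the whole genome. They were unique at 98.4% or more of the positions within 1 kb of each TSS and at 100% of those in the 8 regions. No reads were examined, so that their placement at these TSSs was not tested.

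Words of other heart factors were looked for in the same regions. The GATA word AGATAA was in 10.1% of all regions and in 24.9% of those away from promoters, and the T-box word AGGTGTGA was in 0.921% of all regions, with both strands read. None of the 8 regions held either word, which says only that these letters are not in these windows.

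The rest of the pathway was read from a list of 33 genes in 6 roles, also written with earlier results of these data known. Of these, 9 (27.3%) had a region at a promoter, 11 (33.3%) in the body and 12 (36.4%) within 100 kb, and 21 had none within 100 kb. The shares over all protein-coding genes were 11.9%, 12.3% and 40.3%, so that the share within 100 kb was near the background and slightly below it. The partners and cofactors of the receptors held most of them. All 3 RXR genes had a region in the body, with Rxra (260 bp, its midpoint 0.433 kb downstream of a TSS) and Rxrb (600 bp, spanning a TSS) at a promoter and Rxrg (140 bp) inside the gene, 13.6 kb from the nearest TSS. Of the 6 cofactor genes, 4 had a region at a promoter.

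The corepressor genes Ncor1 (180 bp) and Nrip1 (1300 bp, on 3 rows) had their region at a promoter. The coactivator genes Ncoa2 and Ncoa3 had regions of 820 and 260 bp at a promoter, and Ncoa2 had a second region of 120 bp in the body. Of 4 genes for uptake, carriage and storage of retinol, Rbp4 had a region (500 bp) spanning a TSS, the same one that bounds the interval around Cyp26a1 and Cyp26c1. Of 3 genes for binding proteins inside the cell, Crabp1 had one of 1420 bp on 2 rows. Among 6 genes known to respond to retinoic acid, Cdx1 had a region of 900 bp at a promoter, and Hoxb1 had 6 regions within 100 kb but none in the gene. None of 11 further genes, grouped here under oxidation or reduction of retinol and retinal, had a region within 100 kb, where 40.3% of all protein-coding genes had one. Some of these 11 genes lie close to each other, so that they are not 11 separate loci.

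**Figure D5:**
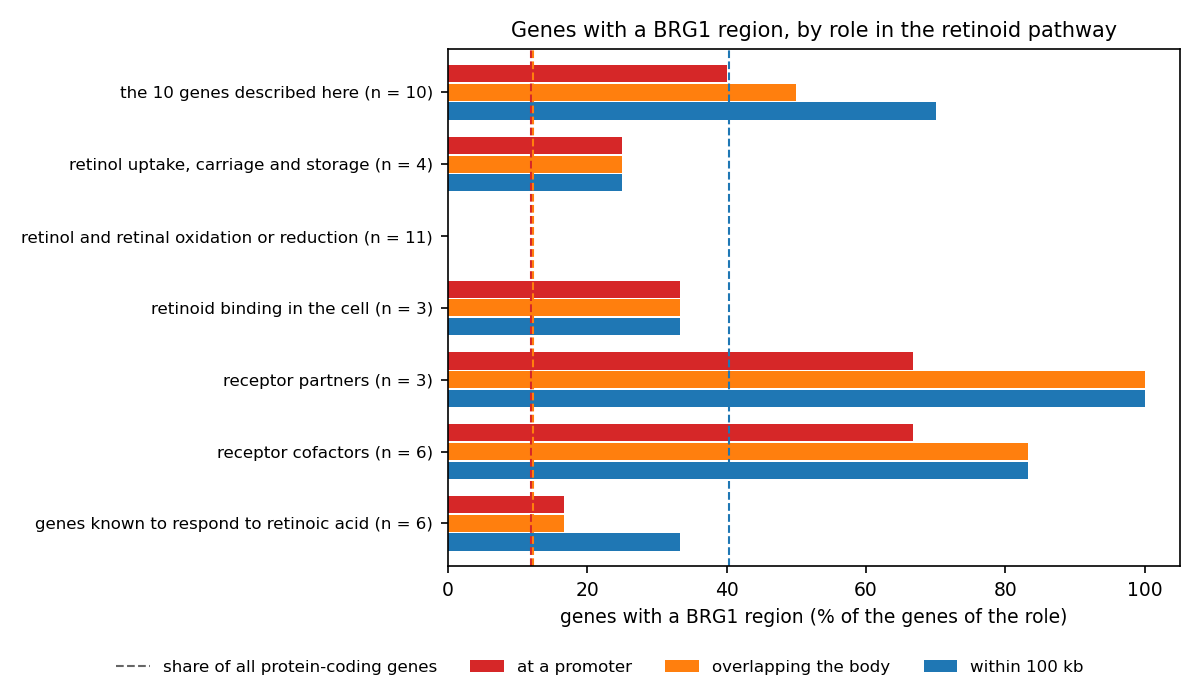
Share of genes with a BRG1 region at a promoter (red), overlapping the body (orange) and within 100 kb (blue), in %, for the 10 genes described here and for 6 roles of the pathway with their number of genes. Dashed lines in the same colours give the shares of all protein-coding genes (11.9, 12.3 and 40.3%). The partners and cofactors of the receptors have the longest bars, and the 11 further genes grouped under oxidation or reduction have none.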

How the data were processed

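BRG1 ChIPseq of wild-type CPs was read from the 1 list of regions that the authors deposited, which holds chromosome, start and end positions in bp on mm9, without height, fold enrichment or P-value. According to the study's methods, the authors used fastq-mcf for trimming of the 75 bp reads and Bowtie for alignment to mm9, set a minimum mapping quality, and took input DNA as the background model of the caller. Tool versions and the way the 2 ChIP libraries were combined are not given in the sources used here.

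Starts were read as counted from 0 and printed counted from 1. All positions fell on a 20 bp grid, and 793 regions on more than 1 row were counted once. Genes and TSSs came from GENCODE release M1 on mm9, and sequences from the mm9 assembly. A RefSeq table of promoter sequences on another build was not used. Regions were placed by overlap of at least 1 bp with a promoter, a gene body or 100 kb beyond the gene ends. The expected CpG number was the product of the C and G counts over the length. Uniqueness was judged by words of 75 bp on both strands of the whole assembly. The tools were samtools 1.23.1 and Python 3.11.15 with the packages matplotlib 3.10.9, numba 0.67.0, numpy 2.4.6, pysam 0.24.0 and scipy 1.17.1.

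The genes named were the 10 genes, the genes of the pathway list with a region at a promoter or in the body, and genes whose promoter or body a region within 100 kb of the 10 genes overlaps. A gene of the pathway list is included in the counts and not reported here. Genes that bound an interval, Aaas and Hoxb1 were named after their values were seen. The genes and lists were chosen with earlier results of these data known, and the comparisons of outermost TSSs and of CpG content were added after the positions had been seen. No test was made, since 1 list has no replicate values. Placement was tested on simulated regions planted upstream of the outermost TSS of chosen genes, some of which were left without a region. The calls at promoters and within 100 kb were right for 200 of 200 genes, and 200 of 200 planted repeats were found. Calls in gene bodies and at internal TSSs were not tested in this way. The alternatives were other promoter widths, distances, transcripts, region widths and repeat words.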

Additional observations from a re-analysis of the deposited data

How the results depend on the processing

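The counts over the 10 genes stayed within 1.5 times under every alternative tried, except the repeat in a region, which went from 1 to 0 region when only the words AGGTCA and AGTTCA were allowed, because the Rarb repeat holds GGTTCA. With regions of at least 200 bp, 3 genes kept a region at a promoter, and with promoters of 1 kb upstream only there were also 3, in both cases without Rarg. Within 50 kb there were 6 genes and 6 regions, within 250 kb 7 genes and 11 regions. The shares over all protein-coding genes at 50 and 250 kb were not computed, so that these counts have no background. The median gap of all protein-coding genes was 156 kb. The share of all protein-coding genes with a region at a promoter moved from 11.9% to 9.12% with regions of at least 200 bp, to 11.5% with promoters of 500 bp either side and to 7.99% with 1 kb upstream only. The share of all regions with a direct repeat moved from 0.288% to 0.0864% with a spacer of 5 bases only, to 0.0288% with AGGTCA and AGTTCA only and to 1.12% with 250 bp added on each side. Among alternatives chosen after seeing the data, the share of genes with no region at the outermost TSS moved from 19.5% to 15.6% with the TSSs of all transcripts, and 23.8% in place of 27.6% of TSSs rich in CpG had a region when a GC content of 50% and a CpG ratio of 0.6 sufficed, with 4 of 10 TSSs of the genes described. Of 49 alternatives over 11 results, 40 left the value within 1.5 times or, for shares, within its 95% interval. No paired analysis was possible because single libraries have no values here. Leaving out a library was not possible for the same reason. Depth and enrichment are unknown, so that absence of a region is not absence of BRG1.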

Other observations

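Besides the region at Rarb, 2 regions of the list held a direct repeat with a spacer of 5 bases, both away from promoters. They lay in the body of Lamc1, a laminin gene (chr1:155167746-155168605, 860 bp wide, on 2 rows, with the words GGTTCA and AGGTCA), and of Msi2, an RNA-binding protein gene (chr11:88374826-88375185, 360 bp wide, on 1 row, with GGGTCA as both words). These genes were named after their values were seen.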
